A study of Mus musculus with 9 samples.

Results

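Amino acid transporter genes of mouse pancreatic islets were examined for their RNA level with and without a Pdx1-Cre driven deletion of Glis3, and for Glis3 binding near them. The set was chosen by gene symbol, as the Slc1a, Slc7a, Slc36a, Slc38a and Slc43a families with Slc3a1 and Slc3a2, and it held 42 of the 25611 rows of the count table. RNA was sequenced from hand-picked islets of mice aged 4 weeks, with 4 control libraries of genotype Glis3fl/fl and 3 libraries labelled knockout of genotype Pdx1-Cre;Glis3fl/fl, each library counted as 1 mouse per the series' design. Both groups carried the conditional allele, and no group carried the Cre driver without it, so effects of driver and deletion cannot be told apart. Pdx1 is active in progenitors of the whole pancreas, so the deletion is not limited to beta cells. For binding, chromatin of islets from Glis3-eGFP mice aged 8 weeks was precipitated with a GFP antibody, and 1 list of 21254 peaks of 200 bp was used.

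Amino acids need carrier proteins to cross membranes. Slc1a carriers bring in glutamate, aspartate or small neutral amino acids with sodium, and several Slc38a carriers bring in glutamine and other small neutral amino acids with sodium. Most Slc7a light chains exchange neutral or cationic amino acids and reach the membrane only when bound to a heavy chain, Slc3a2 or Slc3a1, while the cationic amino acid carriers of the same family work alone. In islets, amino acids such as leucine, glutamine and arginine affect the secretion of insulin and glucagon, and alpha cells are known to raise Slc38a5 when glucagon signalling is blocked and blood amino acids rise.

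Sequencing depth was 18297697 to 48054551 counts in the controls and 12099365 to 22578480 counts in the labelled knockouts. Levels are given as CPM, counts per 1000000 counts after normalisation. They are not per length, so single genes are not compared by them. Beta cell markers, 12 genes, summed to 330100 to 551100 CPM in the controls and 189500 to 299800 CPM in the labelled knockouts. Of them 6 were lower, 1 was higher and 5 did not pass (edgeR adjusted p under 0.05). Their median log2 change (labelled knockout over control) was −1.0. Glis3 itself was not lower but higher in the labelled knockouts (edgeR adjusted p = 0.0257, log2 change 0.52, SE 0.14). It had 37.8 ± 6.95 CPM (SD, n = 4) in the controls and 54.2 ± 3.11 CPM (SD, n = 3) in the labelled knockouts, without overlap. The Glis3 count covers the whole gene and does not check the deletion of single exons, so the group is called labelled knockout throughout. Duct markers, summed over 10 genes, stood at 271.7 to 327.7 CPM and 822.8 to 994.5 CPM, with Onecut1 at 0, and 8 stellate and fibroblast markers at 289.4 to 382 and 427.7 to 556.4 CPM. Of 8 tested duct markers 1 was higher and 7 did not pass, with a median log2 change of 1.43. Among the 8 stellate and fibroblast markers 2 were higher and 6 did not pass, with a median of 0.55. The part of these cells in the results was not tested. In these bulk samples fewer cells of a type and less RNA per cell cannot be told apart.

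Of the 42 transporter genes 31 had enough counts to be tested, and 8 of them changed. Slc38a5, Slc1a1 and Slc7a14 rose, and Slc3a2, Slc7a5, Slc7a8, Slc7a2 and Slc38a2 fell. Over all 14529 tested genes 14.0% were called, 8.73% higher and 5.25% lower (edgeR quasi-likelihood test, Benjamini-Hochberg adjusted p under 0.05), against 3 higher and 5 lower among the 31. Another 23 tested members did not pass. The libraries of the groups did not overlap in 12 tested members, 6 in each direction, where 26.6% of all tested genes did not overlap, 14.0% higher and 12.6% lower. Of the 17 tested members with at least 10 CPM on average 5 were lower and 2 higher, where 17.9% of all tested genes of that level were called, 7.52% lower and 10.3% higher. The median log2 change (labelled knockout over control) was 0.16 in the tested members and 0.0065 over all tested genes. Genes that passed the low-count filter through 1 group alone can be among the 31, so these counts describe the set and are no test of it.

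**Figure D1:**
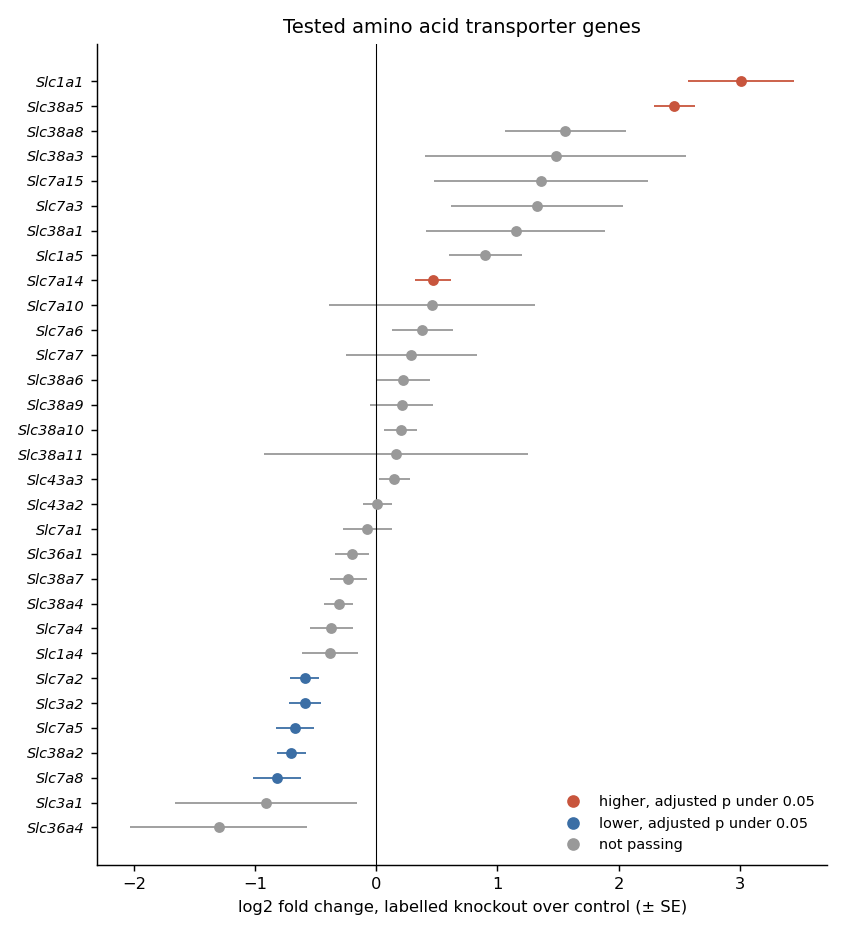
Log2 change of each of the 31 tested amino acid transporter genes, labelled knockout over control, with its SE as a bar. The 3 genes marked as higher and the 5 marked as lower had an edgeR adjusted p under 0.05, and genes near 1 CPM such as Slc38a11 and Slc38a3 have wide bars.

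Slc38a5, which encodes a sodium-coupled carrier of glutamine, asparagine, serine and histidine, had the smallest p of the set. The gene lies on chromosome X, 8271381 to 8280176, plus strand (mm10). It stood at 35.3, 29.4, 35.6 and 51.8 CPM in controls 1, 2, 3 and 4, and labelled knockouts 1, 2 and 3 had 198, 238 and 193 CPM. Each labelled knockout was far above each control. The mean was 38.04 ± 9.63 CPM (SD, n = 4) in the controls and 209.5 ± 24.5 CPM (SD, n = 3) in the labelled knockouts, a 5.51-fold rise (edgeR adjusted p = 9.6e-07, log2 change 2.46, SE 0.17). Its RefSeq promoter window, 250 bases before to 50 after the start site (chrX:8271131-8271430, plus strand, GRCm38.p6, the assembly of mm10), is shown with that of Slc1a1 (chr19:28834885-28835184, plus strand), because these genes rose most in the set. Neither window overlapped a Glis3 peak or held either motif described further on, so both are printed without capitals.
Slc38a5: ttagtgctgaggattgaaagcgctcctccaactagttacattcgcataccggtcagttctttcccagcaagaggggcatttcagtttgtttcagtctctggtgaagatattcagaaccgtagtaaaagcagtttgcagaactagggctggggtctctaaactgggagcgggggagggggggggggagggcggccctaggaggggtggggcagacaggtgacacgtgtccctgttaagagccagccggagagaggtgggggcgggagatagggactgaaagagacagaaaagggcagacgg
Slc1a1: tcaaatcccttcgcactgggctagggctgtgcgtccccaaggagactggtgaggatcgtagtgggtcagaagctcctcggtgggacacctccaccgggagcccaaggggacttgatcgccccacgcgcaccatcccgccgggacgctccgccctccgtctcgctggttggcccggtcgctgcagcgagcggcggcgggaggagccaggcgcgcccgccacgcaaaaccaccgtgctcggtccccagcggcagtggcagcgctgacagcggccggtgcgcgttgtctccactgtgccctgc

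Slc38a5 is also transcribed in acinar cells, the enzyme-secreting cells around islets, so acinar, alpha cell and Xist levels are given beside it. Summed over 21 acinar markers, controls 1, 2, 3 and 4 had 991.1, 5078, 965 and 6009 CPM, and labelled knockouts 1, 2 and 3 had 3080, 16600 and 4341 CPM. Of the 19 tested acinar markers 0 passed with edgeR, DESeq2 or limma-voom, and 1 had an unadjusted p under 0.05 with edgeR. With the replicate number as a block 14 were called higher, and the summed level was higher in the labelled knockout of all 3 same-numbered pairs. The median log2 change of the 19 was 1.28, and Amy2a5 was at 0 in every library. The labels do not pair the libraries, and without pairs the summed levels overlapped, with control 4 above labelled knockouts 1 and 3. Beyond a fit with a covariate, the part of acinar RNA in the rise of Slc38a5 was not tested. With the acinar marker mean as a covariate the log2 change of Slc38a5 was 2.35 (SE 0.19, edgeR adjusted p = 7.3e-06). Over the alternatives, which include DESeq2 and limma-voom, its adjusted p was 2.5e-40 to 1.6e-05.

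Of 13 tested alpha cell markers Gc (log2 change 2.21), Ttr (1.65), Pcsk2 (0.75) and Sv2b (0.95) rose, and 3 or 4 were called higher in each alternative. The 3 lower markers included Irx2 (−0.53) and Irx1 (−0.82), but 0 were lower without labelled knockout 1 or when library size alone was used, and 1 was lower with limma-voom, the replicate block or the acinar covariate and without labelled knockout 3, control 3 or control 4. The glucagon gene Gcg (edgeR adjusted p = 0.343, log2 change −0.32, SE 0.2) was 1 of 6 that did not pass. The median of the 13 was 0.12, and the sum over 14 markers was 40570 to 79640 CPM in the controls and 51990 to 55610 CPM in the labelled knockouts. Xist, the RNA of the inactive X chromosome, stood at 270.0, 241, 0.426 and 0.335 CPM in controls 1, 2, 3 and 4 and 262, 235 and 0.221 CPM in labelled knockouts 1, 2 and 3. Both groups held libraries with and without it, and with Xist as a covariate the log2 change of Slc38a5 was 2.51 (SE 0.17, edgeR adjusted p = 1.1e-06).

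**Figure D2:**
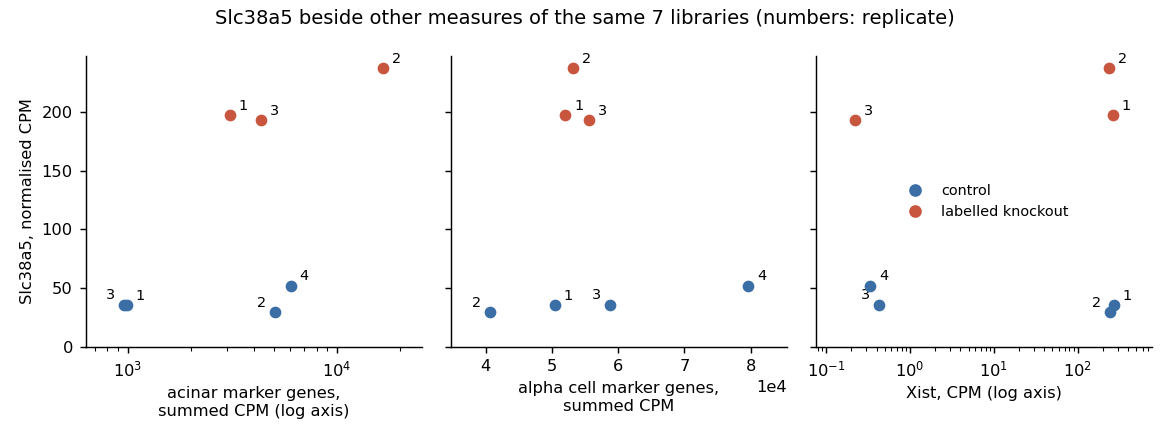
Slc38a5 level (vertical axis, normalised CPM) of each library against the summed CPM of acinar markers, the summed CPM of alpha cell markers and the CPM of Xist, with 1 point per library. The 3 labelled knockouts lie at 193.2 to 237.6 CPM of Slc38a5 and the 4 controls at 29.41 to 51.83 CPM, while the ranges of the groups overlap along each horizontal axis.

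Among the Slc1a genes, the glutamate carrier gene Slc1a1 rose from a low level. It encodes a high-affinity carrier of glutamate, aspartate and cysteine that is widespread outside glia. Its values were 1.36, 0.836, 0.426 and 0.6700 CPM in controls 1, 2, 3 and 4 and 10.1, 6.52 and 3.99 CPM in labelled knockouts 1, 2 and 3, from 39, 43, 7 and 14 and 136, 151 and 90 counts. All labelled knockouts were above all controls, with labelled knockout 1 the highest. The rise was 8.08-fold (edgeR adjusted p = 4.1e-04, log2 change 3.01, SE 0.44), and the log2 change was 2.63 to 3.35 over 17 alternatives, all past the threshold (adjusted p 9.1e-10 to 0.00262). Slc1a1 (chromosome 19, 28835166 to 28913960, plus strand, mm10) begins 155.1 kb from the span of Glis3.

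The carriers of small neutral amino acids in this family did not pass. Slc1a5, an exchanger of glutamine, alanine, serine and cysteine, had 6.34, 5.43, 6.88 and 4.31 CPM in the controls, and the labelled knockouts had 16.6, 8.64 and 7.04 CPM. There was no overlap, with labelled knockout 3 close to control 3 (edgeR adjusted p = 0.0597, log2 change 0.90, SE 0.3). Slc1a5 passed without labelled knockout 3 (edgeR adjusted p = 0.0345, log2 change 1.1) and in 4 more alternatives (0.0277 to 0.316 over all). Without labelled knockout 1, the highest, its log2 change was 0.45 (edgeR adjusted p = 0.316). Slc1a4, a carrier of alanine, serine and cysteine, had 8.67, 7.93, 9.01 and 7.08 CPM in the controls, and the labelled knockouts had 6.91, 4.92 and 7.09 CPM. Labelled knockouts 1 and 2 were below every control and labelled knockout 3 level with control 4 (edgeR adjusted p = 0.314, log2 change −0.38, SE 0.23).

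Slc1a2, Slc1a3, Slc1a6 and Slc1a7 were near absent. Slc1a2, the main glutamate carrier of astrocytes, had 10, 0, 0 and 0 counts in controls 1, 2, 3 and 4 and 27, 0 and 4 counts in labelled knockouts 1, 2 and 3. Slc1a3, another glial carrier, had 4 and 18 counts in all controls and all labelled knockouts. The counts of Slc1a6, a carrier of Purkinje neurons, were 17, 0 and 0 in the labelled knockouts and 0 in every control, and Slc1a7 had none.

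The heavy chain gene Slc3a2 and its light chain partners Slc7a5 and Slc7a8 fell. Slc3a2, the heavy chain of CD98, carries these light chains to the membrane. It stood at 196, 191, 212 and 216 CPM in controls 1, 2, 3 and 4, and labelled knockouts 1, 2 and 3 had 118, 129.5 and 159 CPM. No library crossed over, and the mean was 204 ± 12.1 CPM (SD, n = 4) against 136 ± 21.2 CPM (SD, n = 3), a 1.502-fold fall (edgeR adjusted p = 0.008, log2 change −0.59, SE 0.13). Slc7a5, the light chain that exchanges leucine and other large neutral amino acids for glutamine, had 64.5, 69.9, 80.4 and 71.3 CPM in the controls and 32.8, 52.6 and 49.5 CPM in labelled knockouts 1, 2 and 3. All labelled knockouts were lower than any control, with labelled knockout 1 the lowest (edgeR adjusted p = 0.0109, log2 change −0.67, SE 0.16). Slc7a8, a light chain with a wider range of neutral amino acids, had 233, 246, 334 and 324 CPM in the controls and 109.5, 208 and 165 CPM in labelled knockouts 1, 2 and 3. The groups did not overlap, and both spread widely, with 284 ± 52.05 and 161 ± 49.1 CPM (mean and SD, edgeR adjusted p = 0.0153, log2 change −0.82, SE 0.2). Without labelled knockout 1 the log2 change of Slc7a8 was −0.61 and no longer passed (edgeR adjusted p = 0.057, with 4.2e-04 to 0.057 over the alternatives).

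Other light chains of Slc3a2 did not pass. Slc7a6, which exchanges cationic for neutral amino acids, had 10.1, 13.8, 7.18 and 10 CPM in the controls, and the labelled knockouts had 18.6, 11.6 and 10.3 CPM. Labelled knockout 1 alone was above every control (edgeR adjusted p = 0.359, log2 change 0.38, SE 0.25). Its relative Slc7a7 had 3.62, 2.35, 1.77 and 1.77 CPM in the controls and 6.01, 1.04 and 1.904 CPM in the labelled knockouts, and its log2 change of 0.29 (SE 0.54, edgeR adjusted p = 0.782) turned to −0.7 without labelled knockout 1. Slc7a10, a carrier of small neutral amino acids, was below 1 CPM in every library (edgeR adjusted p = 0.78, log2 change 0.46, SE 0.85). Slc7a11, the cystine and glutamate exchanger, was not tested, with 11 counts in all controls and 4 in all labelled knockouts.

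The second heavy chain gene, Slc3a1, was low. Its partner Slc7a9 had no count in any library. Slc3a1 had 0.279, 0.953, 0.974 and 1.24 CPM in the controls, and the labelled knockouts had 0.594, 0.432 and 0.354 CPM, inside the range of the controls (edgeR adjusted p = 0.471, log2 change −0.91, SE 0.75). Slc3a1, Slc7a10 and Slc7a7 each overlap a gene of the opposite strand (Prepl, Lrp3 and Oxa1l, by 765, 234 and 228 bp). The strand setting of the counting is not given in the sources used here, so reads in these stretches cannot be assigned.

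Among the cationic amino acid carrier genes and their relatives Slc7a2 fell, Slc7a14 rose and Slc7a1, Slc7a3 and Slc7a4 did not pass. Slc7a2, a carrier of arginine, lysine and ornithine, stood at 238, 262, 246 and 261 CPM in controls 1, 2, 3 and 4, and labelled knockouts 1, 2 and 3 had 174, 145 and 184 CPM. The groups were far apart, with means of 252 ± 11.8 CPM (SD, n = 4) and 168 ± 20.3 CPM (SD, n = 3), a 1.501-fold fall (edgeR adjusted p = 0.00595, log2 change −0.59, SE 0.12). Slc7a14 had 199, 175, 137 and 138 CPM in the controls, and labelled knockouts 1, 2 and 3 had 243, 210.0 and 222 CPM. The groups did not overlap, but control 1 was close to labelled knockout 2 (162 ± 30.4 and 225 ± 16.7 CPM, edgeR adjusted p = 0.0482, log2 change 0.47, SE 0.15). Slc7a14 kept its call without control 1 and lost it without any 1 of the other libraries (edgeR adjusted p = 0.155, 0.0591 and 0.118 without labelled knockouts 1, 2 and 3, and 0.0687, 0.153 and 0.126 without controls 2, 3 and 4, with 0.0133 to 0.155 over the alternatives). It also did not pass with the acinar covariate or without the 10 most abundant genes (edgeR adjusted p = 0.072 and 0.053). Of 17 alternatives it kept its call in 9.

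Slc7a1, the widespread arginine carrier, had 20.8, 21.6, 22.3 and 17.9 CPM in the controls and 13.1, 25.7 and 19.9 CPM in labelled knockouts 1, 2 and 3, which lay below, above and within the range of the controls (edgeR adjusted p = 0.856, log2 change −0.073, SE 0.2). The log2 change of Slc7a1 was 0.14 without labelled knockout 1 and 0.087 when scaled by library size alone. Slc7a4 had 28.04, 29.8, 27.1 and 29.9 CPM in the controls and 28.5, 15.6 and 22.8 CPM in labelled knockouts 1, 2 and 3, of which the first lay among the controls (edgeR adjusted p = 0.197, log2 change −0.37, SE 0.18). Without that library Slc7a4 passed (edgeR adjusted p = 0.0487, log2 change −0.58), and without labelled knockout 2, the lowest, it had −0.17 (edgeR adjusted p = 0.51, with 0.0487 to 0.605 over the alternatives). Slc7a3, an arginine carrier on chromosome X, had 0.871, 0.564, 0.791 and 0.766 CPM in the controls and 4.38, 0.691 and 0.709 CPM in the labelled knockouts, high in labelled knockout 1 alone (edgeR adjusted p = 0.242, log2 change 1.33, SE 0.71, and −0.088 without that library). Slc7a15 reached at most 2.005 CPM, again in labelled knockout 1 (edgeR adjusted p = 0.346, log2 change 1.36, SE 0.88). Slc7a13 had 5 counts, all in that library, and Slc7a12 had none.

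**Figure D3:**
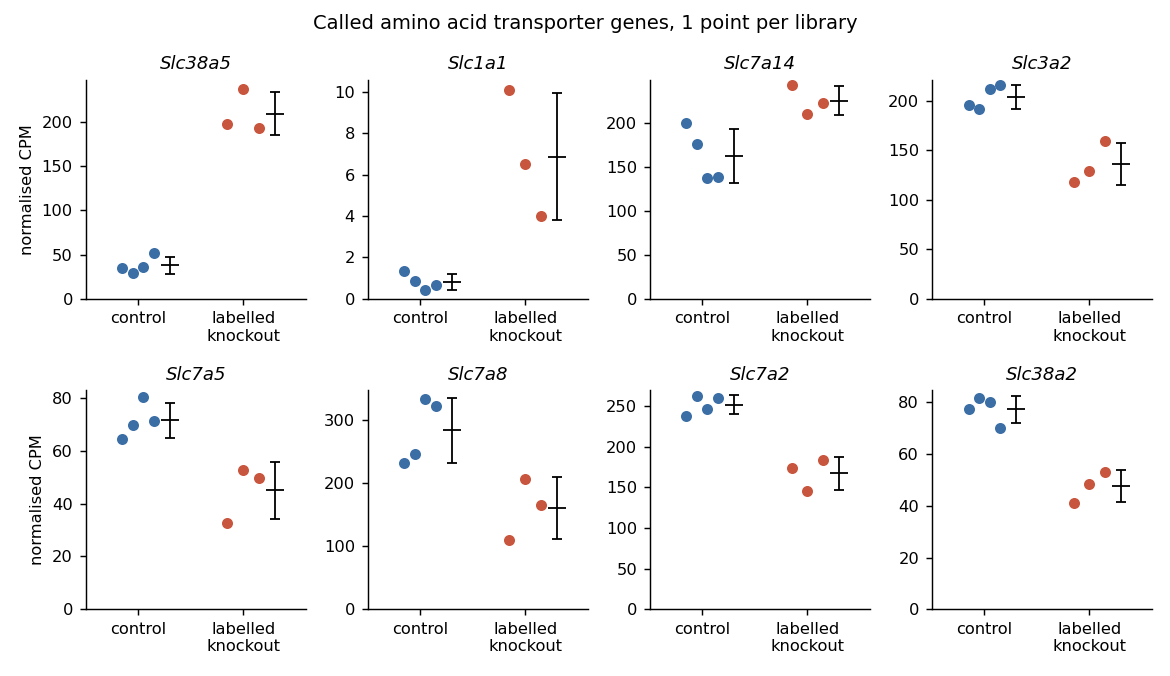
Normalised CPM of the 8 called transporter genes, with 1 point per library and the mean and SD of each group. Slc38a5 has 29.41 to 51.83 CPM in the controls and 193.2 to 237.6 CPM in the labelled knockouts, and the groups lie closer in Slc7a14, with 199.1 CPM in the highest control and 210.0 CPM in the lowest labelled knockout.

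Within the Slc38a family Slc38a2 fell, the opposite direction to Slc38a5. Slc38a2 encodes a carrier of alanine, serine and glutamine that many cells raise when amino acids are short. It stood at 77.5, 81.8, 79.9 and 69.9 CPM in controls 1, 2, 3 and 4, and labelled knockouts 1, 2 and 3 had 41.1, 48.5 and 53.2 CPM. The groups were well apart, and the mean was 77.3 ± 5.21 CPM (SD, n = 4) against 47.6 ± 6.09 CPM (SD, n = 3), a 1.62-fold fall (edgeR adjusted p = 0.00154, log2 change −0.70, SE 0.12). It passed in all 17 alternatives (adjusted p 3.7e-06 to 0.0319). Slc38a4, a carrier of neutral and cationic amino acids that lies near it on chromosome 15, had 194, 192, 202 and 216 CPM in the controls, and the labelled knockouts had 156, 145 and 184 CPM. These did not overlap, yet the difference missed the threshold (edgeR adjusted p = 0.115, log2 change −0.31, SE 0.12) and passed with DESeq2 alone (adjusted p = 0.0476, with 0.0476 to 0.576 over the alternatives). Slc38a1, a glutamine carrier of the same stretch of chromosome 15, had 0.801, 0.797, 0.183 and 0.574 CPM in the controls and 1.78, 1.99 and 0.3100 CPM in labelled knockouts 1, 2 and 3, the last of which lay among the controls (edgeR adjusted p = 0.341, log2 change 1.15, SE 0.74).

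The glutamine carrier genes Slc38a8 and Slc38a3 were low in the controls. Slc38a8 had 1.115, 0.992, 0.913 and 1.005 CPM in the controls, and labelled knockouts 1, 2 and 3 had 1.19, 4.49 and 3.19 CPM. The groups did not overlap, but labelled knockout 1 lay next to the controls (edgeR adjusted p = 0.0531, log2 change 1.56, SE 0.5). Without that library Slc38a8 passed (edgeR adjusted p = 0.00841, log2 change 1.92), and without labelled knockout 2, the highest, it had 1.13 (edgeR adjusted p = 0.222, with 0.00841 to 0.259 over the alternatives). Slc38a3 had 0.139, 0.836, 0 and 0.957 CPM in the controls and 0.0742, 3.46 and 0.576 CPM in the labelled knockouts, with overlap (edgeR adjusted p = 0.413, log2 change 1.48, SE 1.08). The log2 change of Slc38a3 was −0.52 without labelled knockout 2, the highest, and −0.41 with the acinar covariate (edgeR adjusted p = 0.241 to 0.834 over the alternatives), and the cause was not tested.

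The remaining Slc38a genes did not pass. Slc38a10 had 223, 311, 268 and 244 CPM in the controls and 293, 325 and 281 CPM in the labelled knockouts, with control 2 inside their range (edgeR adjusted p = 0.378, log2 change 0.20, SE 0.14). Slc38a9, the lysosomal carrier that reports arginine to the kinase complex mTORC1, had 8.29, 6.51, 6.15 and 5.74 CPM in the controls and 10.8, 5.88 and 6.69 CPM in the labelled knockouts, with overlap (edgeR adjusted p = 0.662, log2 change 0.21, SE 0.26, and −0.093 without labelled knockout 1). Slc38a6 had 12.4, 9.01, 8.83 and 10.7 CPM in the controls and 12.2, 8.94 and 14.6 CPM in the labelled knockouts, again overlapping (edgeR adjusted p = 0.566, log2 change 0.22, SE 0.22). Neither Slc38a7, a lysosomal carrier of glutamine and asparagine (edgeR adjusted p = 0.324, log2 change −0.23, SE 0.15), nor Slc38a11, below 1 CPM in every library (edgeR adjusted p = 0.948, log2 change 0.16, SE 1.09), differed past the threshold.

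No proton-coupled Slc36a gene and no Slc43a gene passed. Slc36a1, the proton-coupled carrier of small amino acids, had 40.3, 48.1, 46.9 and 46.6 CPM in the controls and 31.9, 42.03 and 44.5 CPM in labelled knockouts 1, 2 and 3, with overlap (edgeR adjusted p = 0.369, log2 change −0.20, SE 0.14). Slc36a4 had 1.08, 1.25, 1.03 and 0.814 CPM in the controls and 0.223, 0.173 and 0.842 CPM in the labelled knockouts, and labelled knockout 3 was within the controls (edgeR adjusted p = 0.268, log2 change −1.30, SE 0.73). Slc36a2 had 1 count in all and Slc36a3 none. Slc43a2, a carrier of branched-chain amino acids, phenylalanine and methionine, had 122, 143, 113 and 119.6 CPM in the controls, and the labelled knockouts had 136, 125 and 116 CPM. Its means of 124 ± 13.1 CPM (SD, n = 4) and 125 ± 10.1 CPM (SD, n = 3) differed by far less than the libraries of a group (edgeR adjusted p = 0.974, log2 change 0.009, SE 0.12), and the sign turned in 9 alternatives. Slc43a3, which carries purine nucleobases despite its family, had 26.8, 25.96, 23.6 and 27.3 CPM in the controls, and the labelled knockouts had 27.4, 31.2 and 27.9 CPM. The groups did not overlap by a narrow margin between control 4 and labelled knockout 1 (edgeR adjusted p = 0.48, log2 change 0.15, SE 0.13). Slc43a1, a carrier of branched-chain amino acids, had 3, 28, 3 and 2 counts in the controls and 37, 0 and 2 counts in labelled knockouts 1, 2 and 3 and was not tested.

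In all, 11 members were not tested for low counts, and 4 of these, Slc1a7, Slc36a3, Slc7a9 and Slc7a12, had no count in any library. A count of 0 in a library allows up to 3 counts, a limit that covers counting error only. Labelled knockout 1, the library with the fewest counts, held the highest CPM of Slc1a2, Slc1a6, Slc43a1, Slc7a3 and Slc7a13, and the cause was not tested.

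Other genes of amino acid handling were read from 5 lists, where 14.0% of all tested genes were called. Of 32 genes of lysosomal amino acid sensing by mTORC1 4 fell, 2 rose and 26 did not pass, with a median log2 change of −0.03. The 4 that fell were folliculin (Flcn), its partner Fnip1 and the Rag GTPase genes Rragc and Rragd, on whose products the folliculin complex is known to act. Flcn had 58.3, 55.7, 74.2 and 56.9 CPM in controls 1, 2, 3 and 4, and labelled knockouts 1, 2 and 3 had 24.1, 26.1 and 30.1 CPM. Each labelled knockout was below each control (edgeR adjusted p = 5.7e-05, log2 change −1.19, SE 0.14), as was the case for Rragd (log2 change −0.67, SE 0.13), Rragc (−0.49, SE 0.11) and Fnip1 (−0.57, SE 0.14). Scaled by library size alone, Fnip1, Rragc and Rragd did not pass (edgeR adjusted p = 0.149, 0.203 and 0.0611). Lamtor2 (log2 change 0.46, SE 0.14) and Sec13 (0.43, SE 0.11) rose. Lamtor2 lost its call without labelled knockouts 1 or 3 or controls 1, 2 or 3, and Sec13 without labelled knockouts 1 or 2 or controls 2 or 3 (edgeR adjusted p up to 0.19 and 0.0944). With the acinar covariate Lamtor2 and Sec13 did not pass (edgeR adjusted p = 0.128 and 0.0847).

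In the response to amino acid shortage 5 of 24 tested genes rose, 2 fell and 17 did not pass, with a median of −0.16. Atf4, the transcription factor of that response, had 219, 259, 233 and 221 CPM in the controls, and the labelled knockouts had 161, 164 and 149 CPM. The groups did not overlap, and Atf4 fell (edgeR adjusted p = 0.00594, log2 change −0.56, SE 0.12), but not when scaled by library size alone (edgeR adjusted p = 0.103, with 6.6e-06 to 0.103 over the alternatives). Asns (log2 change −0.10), Ddit3 (−0.51), Chac1 (−0.56) and Trib3 (−0.86) did not pass. Nor did Aldh18a1 (0.37, edgeR adjusted p = 0.0512, groups without overlap), Gpt2 (0.47), Cth (0.073) and Psph (0.061). All others of the 17 had a negative change. Pycr1 of proline synthesis (1.45, SE 0.13), Psat1 (0.83, SE 0.23) and Phgdh (from 7.995 ± 1.22 to 17.3 ± 5.67 CPM) of serine synthesis, the stress gene Nupr1 (1.52, SE 0.33) and the hormone gene Stc2 (4.33, SE 0.92) rose, and Cbs of cysteine synthesis fell (−0.77, SE 0.14). Atf4 is known to activate many genes of this list, among those that rose as well as those that did not pass. Psat1 lost its call without labelled knockouts 2 or 3 or controls 1, 2 or 3 (edgeR adjusted p = 0.0602 to 0.128) and Stc2 without labelled knockout 2 (0.0834). With the acinar covariate Psat1, Nupr1 and Stc2 did not pass (0.161, 0.0572 and 0.0601).

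Of 23 tested genes for enzymes of glutamine, glutamate and related amino acids 3 fell, 2 rose and 18 did not pass, with a median of −0.09. Glutamine synthetase (Glul) had 346, 342, 338 and 330.2 CPM in the controls, and the labelled knockouts had 229.7, 224 and 249 CPM. The groups were far apart (edgeR adjusted p = 0.00591, log2 change −0.54, SE 0.11), and the call was lost when scaled by library size alone (0.0838). Gad1 (log2 change −3.86, SE 0.45) and Abat (−0.69, SE 0.13), which make and break down GABA, fell, and Bckdhb of branched-chain amino acid breakdown rose (1.06, SE 0.14) with Pycr1, which is on both lists. Among 20 aminoacyl-tRNA synthetase genes Gars passed (edgeR adjusted p = 0.0499, log2 change −0.34, SE 0.11), lost its call without any 1 library (edgeR adjusted p = 0.0692 to 0.143) or with the replicate block (0.0634), and the median was −0.11. Of 20 tested genes for carriers of amino acids or peptides outside the set and their partners 3 fell, 1 rose and 16 did not pass, with a median of −0.19. Among those that fell were the aromatic amino acid carrier gene Slc16a10 (log2 change −0.47, SE 0.12) and the cystine carrier gene Ctns (−0.47, SE 0.15), and Tmem27 rose (0.88, SE 0.15). Slc16a10 did not pass without labelled knockout 2 (edgeR adjusted p = 0.0657) and Ctns without labelled knockouts 1 or 2 or controls 2, 3 or 4 (0.0818 to 0.134). Neither passed when scaled by library size alone (edgeR adjusted p = 0.208 and 0.312) or with the acinar covariate (0.0933 and 0.138). Of 17 alternatives Slc16a10 kept its call in 14 and Ctns in 7.

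**Figure D4:**
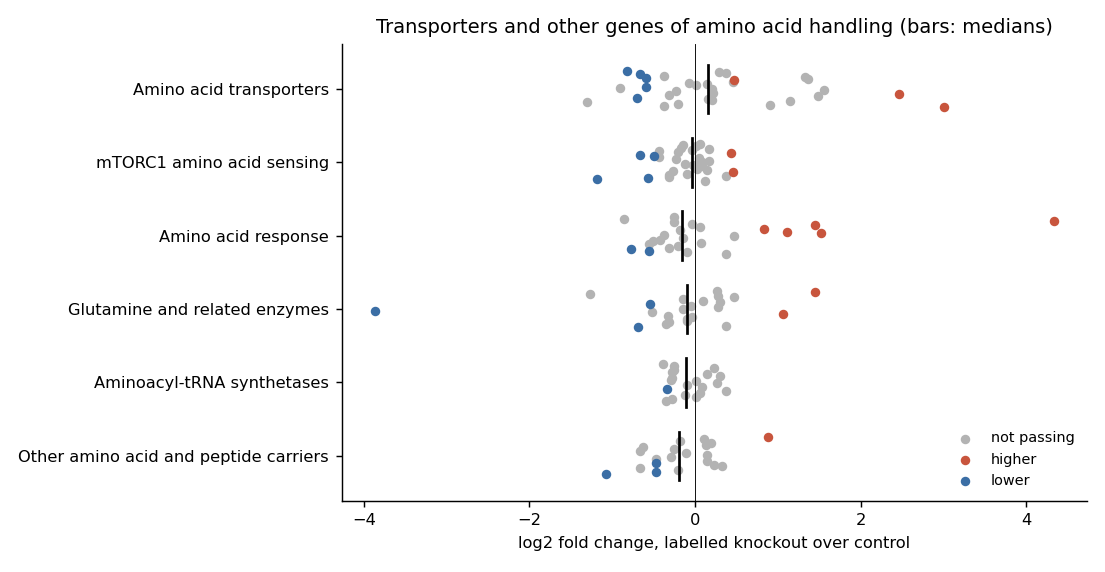
Log2 change (labelled knockout over control) of the tested genes of the transporter set and of 5 other lists of amino acid handling, with 1 point per gene and the median of each list. The medians lie between −0.19 and 0.16, and Gad1 and Stc2 lie far out at −3.86 and 4.33.

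Glis3 peaks were counted near the starts of the transporter genes and of all genes. Distances ran from the 5′ end of the gene span to the peak midpoint. Of all 42 members 20 had a peak within 1 kb, 22 within 10 kb, 29 within 50 kb and 36 within 100 kb, where 43.1%, 52.9%, 69.5% and 77.5% of all genes had one, and 25 members were the nearest gene of a peak, where 50.1% of all genes were. Of the 31 tested members 18 had a peak within 1 kb and 20 within 10 kb. These shares were below the 71.2% and 80.5% of all tested genes that had one. Tested members with a peak within 10 kb had a median control level of 24.7 CPM and the 11 without one 1.006 CPM, not corrected for gene length. Of tested genes of at least 10 CPM 84.4% had a peak within 1 kb.

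All 5 transporter genes that fell had a peak just inside the gene span, at 640 bp for Slc38a2, 240 bp for Slc3a2, 228 bp for Slc7a5, 238 bp for Slc7a2 and 124 bp for Slc7a8. The RefSeq promoter window of Slc3a2 (chr19:8713848-8714147, minus strand) belongs to another start site, inside the span. The peak at 240 bp lies upstream of that window, and another peak (chr19:8713418-8713617) lies downstream of it. Among all genes called lower 81.4% had a peak within 1 kb, and among those called higher 61.9%. Slc7a14 had one at 233 bp and 7 in its span. Slc38a5 and Slc1a1 had none within 50 kb, and the nearest midpoints lay 65.06 kb and 100.8 kb upstream. Of all tested genes 91.1% had a peak within 50 kb and 95.0% within 100 kb.

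Peaks at like distances stood at 12 tested genes that did not pass. Downstream of the start they were at Slc38a6 (37 bp), Slc7a6 (47 bp), Slc1a5 (86 bp), Slc38a1 (104 bp), Slc36a1 (153 bp), Slc43a2 (166 bp), Slc38a10 (205 bp), Slc36a4 (308 bp) and Slc7a1 (442 bp). Upstream they were at Slc7a4 (20 bp), Slc38a9 (75 bp) and Slc1a4 (218 bp). The near-silent genes Slc1a2 (233 bp) and Slc1a6 (148 bp) had one too, and Slc38a3 (6270 bp) and Slc3a1 (9595 bp) had one within 10 kb.

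**Figure D5:**
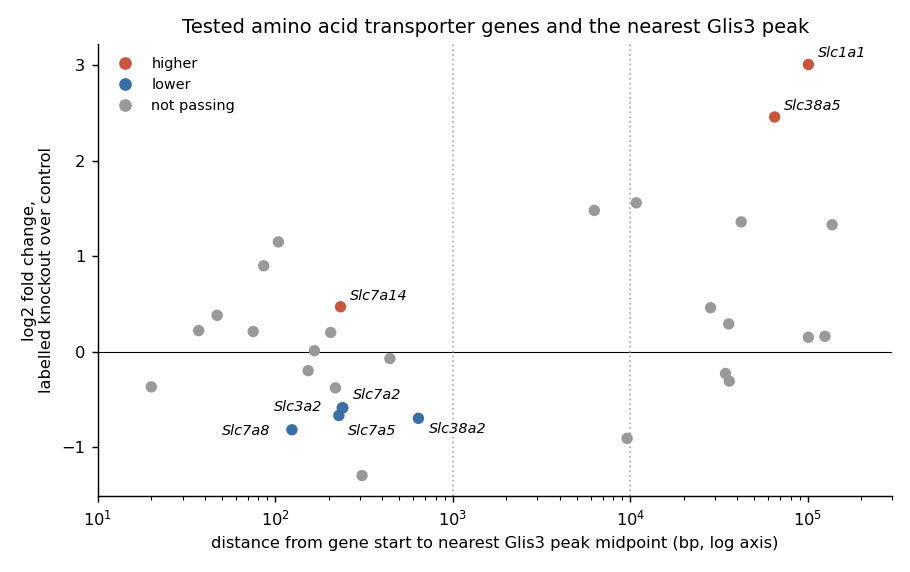
Log2 change (vertical axis) of the 31 tested transporter genes against the distance from the gene start to the nearest Glis3 peak midpoint (horizontal log axis). The 5 genes that fell lie between 124 and 640 bp, and Slc1a1 and Slc38a5 lie beyond 50 kb.

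Slc7a5 and Slc7a2, which fell, had no RefSeq promoter window here and were not searched for motifs. Such windows were found for 31 of the 42 members, as 42 windows. The core of the Glis binding site, TGGGGGG or CCCCCCA on the other strand, was in 6 of these windows and in 8.47% of all 32817 windows of that length. They belonged to Slc7a8, Slc7a14, Slc38a8, Slc38a10, Slc7a10 and Slc43a2. The core of the amino acid response element that Atf4 binds, searched as TGATGNAA or TTNCATCA, was in 4 member windows, of Slc1a4, Slc7a11 and Slc7a7, and in 3.97% of all windows. No member window held both, so the motifs did not overlap there. A match describes the letters and is not a site. The windows of Slc7a8 (chr14:54781837-54782136, minus strand), which fell, and Slc7a14 (chr3:31310270-31310569, minus strand), which rose, are shown for their matches of the Glis core, in capitals. That of Slc38a2 (chr15:96699679-96699978, minus strand), which fell, is shown beside them as a window with neither core.
Slc7a8: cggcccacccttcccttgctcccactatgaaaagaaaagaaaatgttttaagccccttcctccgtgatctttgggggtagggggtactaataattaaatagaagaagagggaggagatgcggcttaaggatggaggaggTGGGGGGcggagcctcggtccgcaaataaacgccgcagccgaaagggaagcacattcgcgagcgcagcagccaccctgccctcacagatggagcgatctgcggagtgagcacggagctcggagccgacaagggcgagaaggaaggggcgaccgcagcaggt
Slc7a14: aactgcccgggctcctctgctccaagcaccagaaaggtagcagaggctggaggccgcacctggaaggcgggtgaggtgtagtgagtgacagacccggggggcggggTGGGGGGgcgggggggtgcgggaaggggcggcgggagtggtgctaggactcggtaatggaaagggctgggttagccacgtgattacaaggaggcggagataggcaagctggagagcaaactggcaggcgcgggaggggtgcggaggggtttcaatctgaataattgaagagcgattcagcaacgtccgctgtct
Slc38a2: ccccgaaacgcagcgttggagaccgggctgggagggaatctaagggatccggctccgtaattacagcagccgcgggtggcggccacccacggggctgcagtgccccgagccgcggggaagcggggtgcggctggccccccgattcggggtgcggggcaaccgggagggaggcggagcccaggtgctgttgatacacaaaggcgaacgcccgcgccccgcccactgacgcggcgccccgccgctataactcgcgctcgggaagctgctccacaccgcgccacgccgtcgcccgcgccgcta

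The last 26 bases of the Slc7a8 window lay under a Glis3 peak (chr14:54781663-54781862), and its match began 111 bases before the start site, outside that peak. In Slc7a14 the match began 144 bases before the start site, and the nearest peak (chr3:31309987-31310186) lay inside the gene. No peak overlapped the window of Slc38a2, whose nearest peak (chr15:96698989-96699188) also lay inside the gene.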

How the data were processed

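Whole-number counts per gene, not normalised, were deposited by the authors for 7 islet RNA libraries. STAR 2.5 and featureCounts 1.5.0-p1, with DESeq2, and for the binding data Bowtie 1.2, HOMER 4.9.1, cutadapt 1.2.1, bedtools 2.24.0 and Picard 1.110, are listed by the submitters' processing notes. Their settings, the strand option included, are not given in any source used here. The deposited peak list has positions on mm10 and no score, and the input library was not analysed here.

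Genes were kept with filterByExpr, scaled with TMM factors and compared with the quasi-likelihood test of edgeR 4.0.16 in R 4.3.3. P-values were adjusted by Benjamini-Hochberg over all 14529 tested genes (threshold 0.05). SE is the absolute log2 change over the square root of F, and CPM are TMM-normalised. The members, lists and tests were chosen with earlier results of these data known. Every library is given for called members, members of at least 1 CPM whose groups did not overlap, and members with a peak within 10 kb. From each list up to 4 called genes per direction were named, and Psat1 and other genes beyond these, or not called, were named after their values were seen. Some called list genes are not reported here. No member symbol was repeated in the table. The fit was tested on simulated data.

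Same-numbered libraries deviated together (r = 0.173, 0.117 and 0.117 for numbers 1, 2 and 3), but so did control 4 and labelled knockout 3 (r = 0.157), which share no number. The pairing is read from the data, not from the labels, and same-numbered libraries were also alike in Xist. The replicate block was an alternative, as were limma-voom (limma 3.58.1), DESeq2 1.42.0, scaling by library size alone or RLE factors, no filter or a minimum of 1 CPM in 3 libraries, acinar and Xist covariates, leaving out the 10 most abundant genes or each library in turn, and other peak windows. Ranges of adjusted p over the alternatives take the test of each fit, so they can include limma-voom and DESeq2 values.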

Additional observations from a re-analysis of the deposited data

How the results depend on the processing

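Slc38a5, Slc1a1, Slc38a2 and Slc3a2 kept direction and call in all 17 alternatives of the RNA fit. Members called higher numbered 5 with DESeq2 and 5 with library size alone, against 3 as reported, and members called lower 3 with library size alone, against 5. Leaving out 1 library gave 2 to 3 higher and 5 lower each time, but not always the same genes. Without labelled knockout 1 Slc7a4 was among the lower genes in place of Slc7a8, and Slc38a8 was called higher. Slc1a5 was called higher without labelled knockout 3, and among these fits Slc7a14 kept its call only without control 1. With the replicate block, in which control 4 has no partner and adds nothing to the contrast, 3 were higher and 5 lower, as without it, and of the named genes Gars (edgeR adjusted p = 0.0634, with 0.00311 to 0.506 over the alternatives) and Ctns (0.0831, with 0.0267 to 0.312) lost their calls. The block raised the acinar markers called higher from 0 to 14 and the stellate and fibroblast markers from 2 to 4. Library size alone moved the median of all genes to 0.175 and the share of higher genes among all calls from 62.4% to 85.1%, and there Slc7a2 (log2 change −0.42, edgeR adjusted p = 0.054, with 1.1e-05 to 0.054 over the alternatives) and Slc7a5 (−0.49, 0.0602, with 0.00103 to 0.0602) missed the threshold. A window of 100 kb gave 36 members with a peak, against 22 at 10 kb.

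Signs turned for 7 members that did not pass, and the cause was not tested. Slc43a2 was −0.017 with the Xist covariate, −0.03 with the acinar covariate, −0.006 without a filter, −0.005 with the replicate block, −0.002 without the 10 most abundant genes and −0.054 to 0.085 with 1 library left out. Slc38a11 was −0.51 with the replicate block and −0.44 to 0.68 with 1 library left out. Slc7a7 was −0.3 with limma-voom, −0.09 with the replicate block and −0.7 to 0.7 with 1 library left out. Slc38a3 was −0.41 with the acinar covariate, and Slc7a1 was 0.087 with library size alone. With 1 library left out Slc38a3 was −0.52 to 1.99, Slc38a9 −0.093 to 0.37, Slc7a3 −0.088 to 1.74 and Slc7a1 −0.32 to 0.14. Several of these members had few counts, with 1, 80 and 13 for Slc38a3 and 59, 16 and 16 for Slc7a3 in labelled knockouts 1, 2 and 3.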

Other observations

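Slc1a1 is the next tested gene beyond the 5′ end of Glis3, and the genes within 500 kb of Glis3 were looked at after its values were seen. Glis3 was itself called higher (edgeR adjusted p = 0.0257, log2 change 0.52, SE 0.14). Of the 11 other genes 9 were tested, and Slc1a1 was the 1 called. The next gene on its far side, 4430402I18Rik, had 1.29, 1.07, 1.64 and 2.39 CPM in the controls, and the labelled knockouts had 2.45, 4.02 and 3.54 CPM, with no overlap (edgeR adjusted p = 0.109, log2 change 1.08, SE 0.42). Plpp6 (log2 change 0.15), Cdc37l1 (−0.041), Ak3 (−0.003) and Rcl1 (−0.15) on the same side and Rfx3 (0.01) on the other did not pass. Both groups carry the conditional Glis3 allele, and whether the position bears on the rise of Slc1a1 was not tested.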
